A study of Mus musculus with 65 samples.

Results

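All 37 genes of the mouse mitochondrial genome were followed in retinal RNA, chosen as every gene whose symbol begins with mt- among the 50686 genes of the count table. They comprised 13 protein-coding genes, 2 rRNA genes and 22 tRNA genes, and each of the 37 had a row in the deposited read counts and in the deposited FPKM values. Counts are given as CPM, the count of a gene scaled to a common total per mouse, and FPKM is an estimate per length of transcript and per depth. RNA came from whole retinal homogenate of 65 adult C57BL/6J mice in 16 groups. Control mice (CD, n = 5) received vehicle diet, and 1 of them is labelled CD_2M, a mark whose meaning was not given for it. Mice of the depletion groups (DEP2, DEP5, DEP7, DEP10, DEP14 and DEP21) ate diet with PLX5622, an inhibitor of CSF1R, the receptor that microglia need to survive, and were collected on the day given in the group name (n = 4 each, n = 3 in DEP5). Mice of the repopulation groups (REPOP3, REPOP5, REPOP7, REPOP10, REPOP14, REPOP21) were returned to control diet after PLX5622 for the number of days in the group name (n = 4 each, n = 6 in REPOP7), and REPOP60 (n = 4), labelled RP2M, for 2 months. A further pair of groups received lipopolysaccharide, LPSCD (n = 3, labelled LPS_CD) together with vehicle and LPSREPOP (n = 4, labelled LPS_PLX), whose labels name PLX5622 and lipopolysaccharide. The methods describe LPSREPOP as retinas with repopulated microglia, while the labels give no return to control diet and no time of repopulation, so its match with REPOP60 is uncertain. PLX5622 was given in the food and reached the whole animal, and no cells were sorted, so that in these bulk samples fewer cells of a type and less RNA per cell cannot be told apart.

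Sample titles ended in RE (39 mice) or re (26 mice), and the meaning of this suffix was not given in the sources used here. In 12 groups both suffixes occurred (36 RE mice and 15 re mice), DEP5 held RE mice and REPOP60, LPSCD and LPSREPOP held re mice. All comparisons with CD were therefore made within a suffix, and the mouse labelled CD_2M is 1 of the 2 re mice of CD. Total counts ran from 5106429 to 8760443 per mouse, with a mean of 8215580 in RE mice and 7487920 in re mice, and the 95% Wilson interval of a mouse's mitochondrial mRNA share was at most 0.0303 percentage points wide, which covers counting error only. Markers of rods, the main cells of the retina, had a mean level between 10.8 and 11.4 log2(CPM + 1) in every mouse. Of 15 microglia markers, 11 or 12 were called lower than in CD in each depletion group, at an edgeR p adjusted over all genes under 0.05. Of all genes, between 0.0603% (DEP5) and 0.13% (DEP21) were called lower there.

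The mitochondrial genome is a small circle that is transcribed from both strands as long precursors. The tRNAs lie between most of the longer genes, and cutting them out releases the mRNAs and rRNAs. The mRNAs encode core subunits of respiratory complexes I, III and IV and of the ATP synthase, the 2 rRNAs build the mitochondrial ribosome, and all other mitochondrial proteins are encoded in the nucleus. Photoreceptors are packed with mitochondria. Most mature mitochondrial mRNAs carry short poly(A) tails and can be caught on poly(T) beads, the selection that the labels give for these libraries. Pieces of mitochondrial DNA also sit in the nuclear genome, and reads of 50 bases, as here, may align to a gene and to its copy.

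A row of such copies lies on chromosome 1 (mm10, minus strand, chr1:24611535-24616197), and its part in how the members were counted was not tested. In the order of the mitochondrial genome it holds Gm29216, which matched the 3′ part of mt-Co1 over 483 bases, and then Gm28661 (mt-Co2), Gm10925 (mt-Atp6), Gm28437 (mt-Co3), Gm28438 (mt-Nd3), Gm10222 (mt-Nd4l) and Gm28439 (the first 876 bases of mt-Nd4). Identity to the mitochondrial gene was 100% for 5 of these 7 copies. Gm28438 differed from mt-Nd3 by T3C and Gm29216 from mt-Co1 by A1066T, with positions counted from 1 at the 5′ end of the mitochondrial gene. Gm29215, also listed beforehand as a possible copy, had 0 counts in every mouse and was not used further. The first 120 bases of mt-Co2 and mt-Nd3 and of their copies are shown because they carry these differences and the lack of them, with the differing base in capitals.
mt-Co2: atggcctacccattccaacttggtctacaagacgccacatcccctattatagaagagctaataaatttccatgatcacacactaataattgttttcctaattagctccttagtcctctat
Gm28661: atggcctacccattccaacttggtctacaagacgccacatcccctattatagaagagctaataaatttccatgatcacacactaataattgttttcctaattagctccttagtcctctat
mt-Nd3: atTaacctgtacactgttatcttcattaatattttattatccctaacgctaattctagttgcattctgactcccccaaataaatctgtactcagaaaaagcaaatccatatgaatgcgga
Gm28438: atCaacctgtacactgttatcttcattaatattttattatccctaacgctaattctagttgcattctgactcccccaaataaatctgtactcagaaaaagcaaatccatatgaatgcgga

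Every stretch of 50 bases of a gene was compared with all other annotated transcripts of GENCODE M21. The shared stretches made up 100% of mt-Co2, 99.9% of mt-Co3, 99.5% of mt-Atp6, 98.8% of mt-Nd4l and 98.0% of mt-Nd3, but 62.2% of mt-Nd4 and 51.1% of mt-Co1. In mt-Nd2 they reached 8.19%, in mt-Nd5 7.61% and in mt-Rnr2 1.04%, and there were none in mt-Nd1, mt-Nd6, mt-Cytb and mt-Rnr1. No annotated transcript shared a stretch with mt-Atp8, which encodes a small subunit of the ATP synthase. It lies in the gap between mt-Co2 and mt-Atp6, however, and that gap was 233 bases long both in the mitochondrial genome and between the copies on chromosome 1, where no gene is annotated. mt-Atp8 and mt-Atp6 also overlap each other, over the 43 bases shown next (chrM:7927-7969), in which a read belongs to both genes.
mt-Atp8/mt-Atp6 overlap: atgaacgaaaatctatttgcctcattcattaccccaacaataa

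The tRNAs that the results turn on are shown in full from 5′ to 3′ as the gene is read, all from the minus strand. mt-Te is the tRNA for glutamate (chrM:14071-14139) and had the highest count of the tRNAs. mt-Ts1, a serine tRNA (chrM:6870-6938), overlaps the end of mt-Co1 on the other strand by 3 bases and lies in the span covered by the copies. mt-Tq, the glutamine tRNA (chrM:3772-3842), overlaps mt-Ti on the other strand by 3 bases. How the counting treated strand was not given in the sources used here, so reads of genes that overlap on opposite strands, such as mt-Nd5 and mt-Nd6 over 14 bases, cannot be told apart.
mt-Te: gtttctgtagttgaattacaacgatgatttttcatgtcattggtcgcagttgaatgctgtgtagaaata
mt-Ts1: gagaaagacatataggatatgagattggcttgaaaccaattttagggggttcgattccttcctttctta
mt-Tq: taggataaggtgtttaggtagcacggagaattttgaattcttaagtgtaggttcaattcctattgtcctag

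Mitochondrial mRNAs split into abundant and scarce genes in the read counts, and were much closer together in FPKM. On the count scale, per kilobase of gene, the highest means over 65 mice were those of mt-Nd1, a complex I subunit, at 7390 CPM per kb and of mt-Cytb, the mitochondrial subunit of complex III, at 7218 CPM per kb. mt-Nd6, the complex I subunit read from the other strand, followed with 5241 CPM per kb and mt-Co1, the catalytic subunit of complex IV, with 4262 CPM per kb. The remaining abundant mRNAs were the complex I subunits mt-Nd2 (4000 CPM per kb), mt-Nd5 (3551 CPM per kb) and mt-Nd4 (1711 CPM per kb). The large rRNA mt-Rnr2 stood at 1564 CPM per kb and the small rRNA mt-Rnr1 at 606 CPM per kb.

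The other 6 mRNAs, all within the span of the copies, were lower by orders of magnitude on the same scale. They were mt-Atp8 (28.3 CPM per kb) and mt-Atp6 (21.4 CPM per kb) of the ATP synthase, mt-Co2 (26.1 CPM per kb) and mt-Co3 (8.73 CPM per kb) of complex IV, and mt-Nd4l (13.6 CPM per kb) and mt-Nd3 (6.28 CPM per kb) of complex I. Their mean counts per mouse ran from 17.6 reads (mt-Nd3) to 144 reads (mt-Co2). In FPKM the same genes had means of 6586 FPKM for mt-Atp6, 4662 FPKM for mt-Co2, 4607 FPKM for mt-Atp8, 3239 FPKM for mt-Co3, 2324 FPKM for mt-Nd4l and 1326 FPKM for mt-Nd3. Only mt-Co3, mt-Nd4l and mt-Nd3 lay below all 7 abundant mRNAs there, which ran from 3405 (mt-Nd5) to 8367 FPKM (mt-Cytb). The ratio of mean FPKM to mean CPM per kb was between 163 (mt-Atp8) and 371 (mt-Co3) for these 6 genes, 2.33 for mt-Nd4, 1.58 for mt-Co1 and between 0.758 (mt-Nd6) and 1.16 (mt-Cytb) for the 5 mRNAs with few or no shared stretches. Large ratios and shared stretches thus fell on the same genes, with mt-Atp8 as the exception among annotated transcripts, and the part of the shared sequence in the ratios was not tested.

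**Figure D1:**
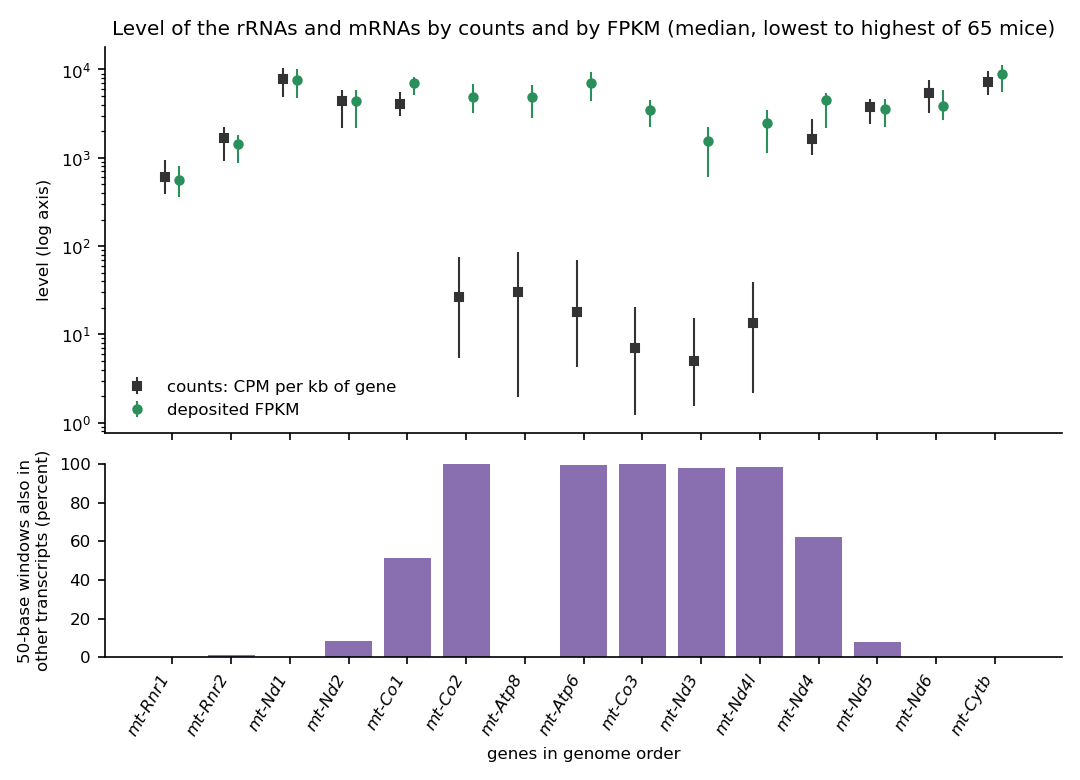
The upper panel gives, for the 15 mRNA and rRNA genes in genome order, CPM per kb and FPKM on a log axis as the median over 65 mice with the lowest and highest mouse, and the lower panel gives the percent of 50-base stretches shared with other annotated transcripts. From mt-Co2 to mt-Nd4l the counts fall far below the FPKM values, and all of these genes but mt-Atp8 are shared over 98.0% or more of their stretches.

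The copies themselves had few counts and high FPKM. Gm10925 had a mean of 69.9 CPM, Gm28661 of 39.6 CPM and Gm28438 of 6.52 CPM. In FPKM each of the nearly full copies was close to its mitochondrial gene, with 4668 FPKM for Gm28661 against 4662 FPKM for mt-Co2, and 1322 FPKM for Gm28438 against 1326 FPKM for mt-Nd3. Values of these genes and their copies are therefore uncertain in both tables, since the handling of reads with several alignments was not given in the sources used here.

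Among the tRNAs, mt-Te (50.05 CPM on average), mt-Tm for methionine (34.7 CPM), mt-Tl1 for leucine (33.0 CPM), mt-Ts1 (12.3 CPM), mt-Tc for cysteine (11.47 CPM) and mt-Tq (10.4 CPM) had the highest counts. tRNA genes are hardly longer than a read, and mature tRNAs carry no poly(A) tail. At the other end, mt-Tk, the lysine tRNA between mt-Co2 and mt-Atp8, had 0 counts in all 65 mice, which allows up to 0.587 CPM in the smallest library, yet its FPKM was 77.7 on average (33.8 to 128 FPKM). mt-Td and mt-Tg, which also lie between genes of the copied span, had a count in 5 and 4 mice, with mean FPKM of 28.0 and 94.4. These 3 were named after their values were seen. mt-Th, outside the span, had a count in 1 mouse and a mean FPKM of 11.8.

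The share of all counts that fell on mitochondrial mRNAs separated the mice by title suffix. It ran from 3.61% to 4.81% in the 39 RE mice (median 4.23%) and from 2.75% to 3.40% in the 26 re mice (median 3.02%), with no overlap. Among the control mice the re mice stood at 2.89% and 3.28% and the RE mice at 4.25%, 4.32% and 4.71%. In each of the 12 groups with both suffixes every re mouse was below every RE mouse. Across these 12 groups the mean was 3.07% ± 0.164 (SD, n = 15) in re mice and 4.24% ± 0.33 (SD, n = 36) in RE mice, a ratio of 0.728 and a log2 difference of −0.46 (permutation of the suffix within groups, two-sided p = 1e-05, the smallest that 100000 draws can give). The share of the summed FPKM showed the same separation, with 13.8% to 18.1% in RE mice and 10.2% to 12.7% in re mice, and a log2 difference of −0.52.

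rRNA and tRNA shares were lower in re mice as well. The 2 rRNAs took 0.278% to 0.441% of the counts in RE mice and 0.185% to 0.298% in re mice. The 22 tRNAs together ranged from 142 to 422 CPM (median 214 CPM) in RE mice and from 83.2 to 173 CPM (median 99.4 CPM) in re mice. For 100 mRNA counts there were 5.91 to 10.8 rRNA counts in RE mice and 5.80 to 10.6 in re mice, and the 19 re mice without lipopolysaccharide lay between 5.80 and 6.98. Within the 12 mixed groups this ratio was 6.59 ± 0.189 (SD, n = 15) in re mice and 8.74 ± 1.16 (SD, n = 36) in RE mice, a log2 difference of −0.39 (permutation within groups, two-sided p = 1e-05), and every re mouse was below every RE mouse in 11 of 12 groups. In the FPKM values the log2 difference of the ratio was −0.06 and was no longer beyond the spread (permutation p = 0.0649).

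**Figure D2:**
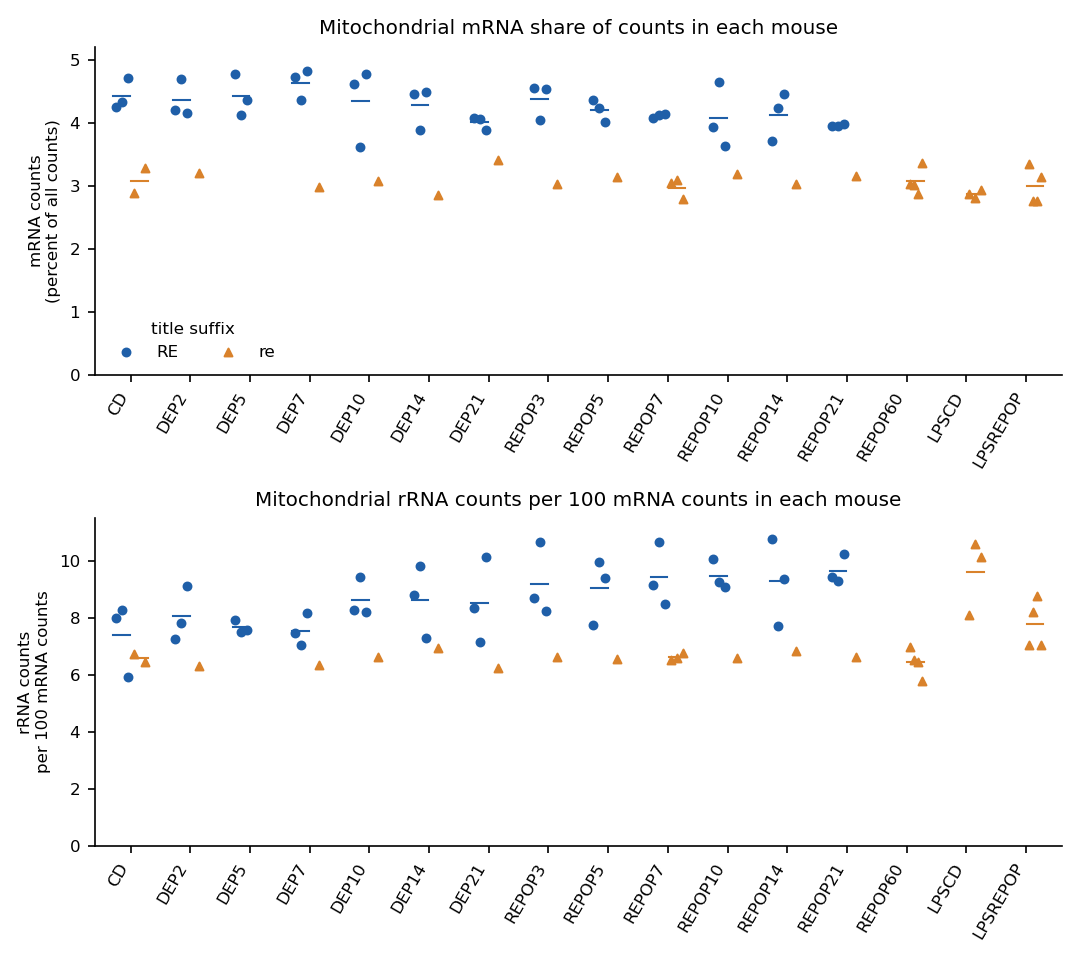
Mitochondrial mRNA counts in percent of all counts (upper panel) and rRNA counts per 100 mRNA counts (lower panel) for each of the 65 mice by group, with RE mice as blue circles, re mice as orange triangles and means as short lines. No re mouse exceeds 3.40% mRNA share and no RE mouse falls below 3.61%, whichever diet it received.

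Gene by gene, 29 of the 31 members that could be tested were lower in re mice than in RE mice at an adjusted p under 0.05 in edgeR, whose quasi-likelihood test was fitted and adjusted over all genes, and 0 were higher. Of all 22579 genes tested, 57.1% were called by the same rule, 27.9% lower and 29.3% higher, so that a large part of the transcriptome differed. All 13 mRNAs and both rRNAs were among the lower members. At the study's stricter rule, an adjusted p under 0.01 and a log2 change beyond 1, 14 of 31 members were lower, against 1.47% of all genes. Not called were mt-Tv (−0.49, adjusted p = 0.144) and mt-Tr (−0.17, adjusted p = 0.438), and mt-Td, mt-Tg, mt-Th, mt-Tk, mt-Tn and mt-Ts2 had too few counts to be tested. A gene was tested if it was detected in at least a 0.5 share of the mice of either suffix. mt-Ty, counted as lower by both rules, had a median of 0 CPM over all re mice and 0.244 CPM over all RE mice. It thus entered through the RE mice, and its call is no separate evidence of a fall.

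The sizes differed between the abundant and the scarce mRNAs. Among the abundant ones mt-Co1 fell least in re mice, with a log2 fold change of −0.19 ± 0.05 (SE), and mt-Cytb followed with −0.34 ± 0.04. mt-Nd5 had −0.55 ± 0.04, mt-Nd1 −0.67 ± 0.04, mt-Nd6 −0.68 ± 0.06, mt-Nd4 −0.68 ± 0.07 and mt-Nd2 −0.72 ± 0.05. In mt-Nd1 this was a mean of 8241 ± 744 CPM (SD, n = 39) over all RE mice and 5318 ± 353 CPM (SD, n = 26) over all re mice. The rRNAs fell by 0.78 ± 0.06 (mt-Rnr1) and 0.93 ± 0.04 (mt-Rnr2) on the log2 scale.

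The 6 scarce mRNAs fell further, from −1.20 ± 0.21 in mt-Nd3 through −2.05 ± 0.16 in mt-Co2 and −2.27 ± 0.19 in mt-Atp6 to −2.78 ± 0.18 in mt-Atp8. The 7 copies on chromosome 1 fell further than each of the 13 mRNAs, between −2.83 (Gm28661) and −3.76 (Gm28438), and their summed level was 136 to 837 CPM in RE mice and 36.3 to 77.4 CPM in re mice. Of the named tRNAs, mt-Ts1 fell most (−2.59) and mt-Tm least (−0.87). By FPKM, tested with limma on log2(FPKM + 1), all 13 mRNAs were lower. The abundant ones lay between −0.37 (mt-Co1) and −0.77 (mt-Nd4), and 5 of the 6 scarce ones between −0.65 (mt-Co3) and −0.77 (mt-Nd4l), while mt-Nd3 had −1.28. In all, 35 of 37 members were lower against 19.8% of all genes, and mt-Ts1 turned to a higher level in re mice (+0.38, adjusted p = 6.4e-05), as 33.7% of all genes did. mt-Tl1 also lost its difference there (+0.02).

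**Figure D3:**
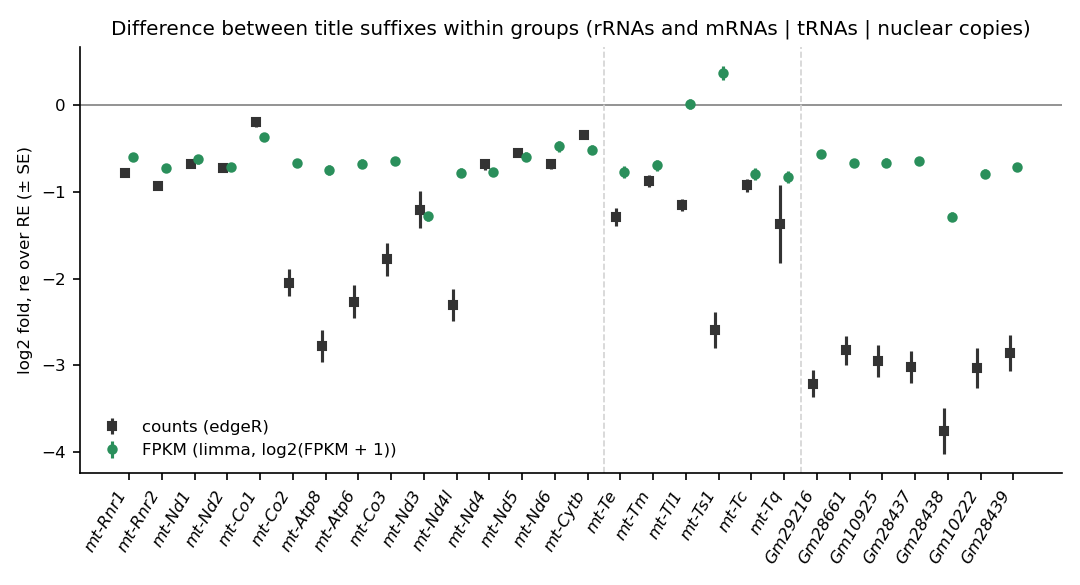
Log2 fold change of re over RE mice with its SE in the 12 groups that hold both suffixes, from counts and from FPKM, for the 15 mRNA and rRNA genes, 6 tRNAs and 7 nuclear copies. Counts and FPKM lie close together for mt-Nd1, mt-Nd2, mt-Nd3 and the rRNAs, and far apart for the other 5 scarce mRNAs, for mt-Ts1 and for the copies.

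Nuclear genes for the same complexes were also lower in re mice more often than higher, by smaller amounts. Of 79 nuclear subunits of complexes I to V tested, 49 were lower and 18 higher, with a median log2 fold change of −0.24 against 0.03 over all genes. By the same rule 27.9% of all genes were lower and 29.3% higher. Complex I contributed 25 lower and 7 higher of 37 (Ndufv2, which binds an iron-sulfur cluster, −0.70), complex III 5 lower and 3 higher of 9 (Uqcrb −1.21, Cyc1, the cytochrome c1 subunit, +0.49), and complex IV with cytochrome c 8 lower and 2 higher of 12 (Cox5b −0.56, Cycs, cytochrome c itself, −1.33). In the ATP synthase 10 were lower and 4 higher of 17 (Atp5k −1.02, Atp5f1 −0.74), and in complex II, which has no mitochondrially encoded subunit, 1 was lower and 2 higher of 4 (Sdhc +0.48).

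Genes that serve the mitochondrial genome itself moved both ways. Of 77 proteins of the mitochondrial ribosome 46 were lower and 15 higher (Mrpl13 −0.76, median −0.18). Among 19 genes of mitochondrial DNA maintenance and transcription 12 were lower and 3 higher, with Ssbp1, the single-strand binding protein, at −0.77 and Polrmt, the mitochondrial RNA polymerase, at +0.55. Of 23 genes that process or stabilise mitochondrial RNA 10 were lower and 4 higher, among them Trmt10c, a subunit of the enzyme that cuts the 5′ ends of the tRNAs, at −0.68, Pnpt1, a nuclease that degrades mitochondrial RNA, at −0.64 and Fastk at +0.44. Of 9 regulators of mitochondrial biogenesis 6 were higher and 3 lower (Esrra +0.51, Pprc1 +0.49, Ppargc1b +0.32, Gabpa −0.40). Rod markers had 4 lower and 2 higher genes of 13 in the same contrast and cone markers 4 lower and 3 higher of 8. Müller glia markers had 3 lower and 0 higher of 7, microglia markers 1 of 12 each way and red blood cell genes 2 lower and 0 higher of 5. Of all genes, 27.9% were lower and 29.3% higher, and the part of these cells in the difference was not tested.

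With the suffix held constant, depletion and repopulation of microglia left the mitochondrial mRNA share near its control level. The log2 difference from CD within suffix lay between −0.10 (REPOP21) and +0.03 (DEP7) over the 13 diet groups, and in no comparison was it beyond the spread between mice (exact permutation within suffix, smallest p = 0.125 in REPOP7, all adjusted p at least 0.889 over 16 comparisons). The smallest p possible was 0.1 in DEP5 and 0.0667 in REPOP60, so these 2 could not pass. It was 0.005 in REPOP7 and 0.0167 in the other diet groups, so a difference in a single group could not pass after adjustment. In REPOP60, collected 2 months after the drug, the 4 mice stood at 3.02%, 3.01%, 2.87% and 3.37%, around the 2.89% and 3.28% of the CD mice with the same suffix. The DEP5 mice, at 4.42% ± 0.33 (SD, n = 3), overlapped the RE mice of CD.

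The 5 abundant mRNAs with few or no shared stretches (mt-Nd1, mt-Nd2, mt-Nd5, mt-Nd6 and mt-Cytb) gave no call in any of the 16 comparisons. Their log2 fold changes lay between −0.31 and 0.17, and the smallest edgeR adjusted p of the 80 tests was 0.145. For mt-Nd1 the log2 fold change against CD was between −0.03 and 0.14 in the 13 diet groups. mt-Cytb had values between −0.16 and 0.01 and mt-Co1 between −0.20 and 0.05 in the same comparisons. By FPKM all 13 mRNAs lay between −0.35 and 0.18 over 16 comparisons with 0 calls in limma (smallest adjusted p = 0.508), where between 0.00382% and 0.106% of all genes were called.

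The scarce mRNAs and a serine tRNA accounted for nearly all calls against CD. In DEP2 mt-Atp6 was the 1 member called of 33 tested (log2 fold change −0.96 ± 0.18 SE, edgeR adjusted p = 0.0105), where 0.109% of all genes were called at an adjusted p under 0.05. Of 8 pigment epithelium genes 1 was called higher there (Dct, an enzyme of melanin synthesis, +1.44), and its part was not tested. In DEP7 it was mt-Ts1, 1 of 32 against 0.108% of all genes, and in DEP21 again mt-Ts1, 1 of 33 against 0.139%. In REPOP10 there were 3 calls of 31 members against 0.365% of all genes, namely mt-Ts1, mt-Atp6 and mt-Co3. Markers of tissue next to the retina moved in the same comparison, with 1 of 8 pigment epithelium genes higher and 1 of 5 lens genes lower, and their part was not tested. REPOP21 had 5 calls of 32 members against 1.9% of all genes. They were mt-Ts1, mt-Co3, mt-Atp6 and mt-Nd4, all lower, and mt-Tq, which was higher. Of 13 rod genes 2 were lower and 1 higher there. The same call rule gave 0 members in DEP5, DEP10, DEP14, REPOP3, REPOP5, REPOP7, REPOP14 and REPOP60, where between 1 (REPOP60) and 9 (REPOP14) members had an unadjusted p under 0.05 and DESeq2 also called 0. Of all genes, 0.0646% were called in DEP5, 0.096% in DEP10, 0.067% in DEP14, 0.0629% in REPOP3, 0.0756% in REPOP5, 0.089% in REPOP7, 0.0125% in REPOP14 and 0% in REPOP60.

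**Figure D4:**
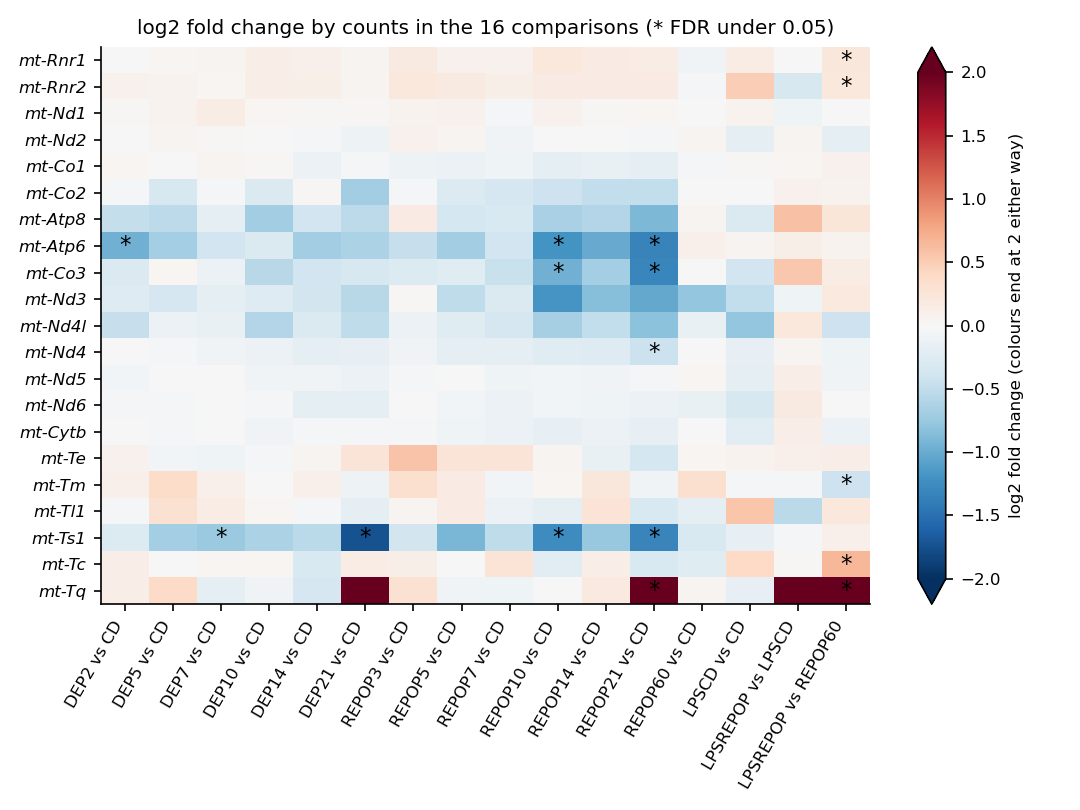
Log2 fold changes of 15 mRNA and rRNA genes and 6 tRNAs in the 16 group comparisons, with colours ending at −2 and 2 and a star where the edgeR adjusted p is under 0.05. The rows of the abundant mRNAs are pale throughout, mt-Atp6, mt-Co3 and mt-Ts1 are lower in most columns against CD, and mt-Tq is high in DEP21, REPOP21 and LPSREPOP against REPOP60.

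In mt-Atp6 the RE mice of CD had 19.3, 37.4 and 38.4 CPM and its re mice 2.90 and 10.4 CPM. The REPOP21 mice had 11.4, 9.57 and 14.01 CPM (RE) and 4.70 CPM (re), and the REPOP10 mice 12.3, 15.4 and 10.8 CPM (RE) and 4.50 CPM (re). RE mice of both groups were below every RE mouse of CD, while their re mice lay between the re mice of CD. Title numbers of the RE mice were 001, 005 and 013 in CD, 037, 038 and 030 in REPOP21 and 033, Q01 and 032 in REPOP10. Group and title number therefore cannot be told apart in these RE mice. The log2 fold change was −1.33 in REPOP21 (edgeR adjusted p = 0.0043) and −1.19 in REPOP10 (adjusted p = 0.0054), but +0.03 and +0.12 by FPKM. In FPKM the RE mice of REPOP21 had 7704, 7437 and 8121 and those of CD 6886, 8407 and 7604, so that the groups overlapped.

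mt-Co3 was also called in REPOP10 and REPOP21, at lower levels, and the abundant mt-Nd4 with a smaller change in REPOP21. mt-Co3 stood at 4.83, 4.66 and 4.67 CPM in the RE mice of REPOP21, below the 9.85, 15.8 and 9.42 CPM of the RE mice of CD (log2 fold change −1.31, edgeR adjusted p = 0.0026, and +0.07 by FPKM). mt-Nd4 stood at 1974, 2261 and 2360 CPM in the RE mice of REPOP21 and 3238, 2645 and 3768 CPM in those of CD (−0.44, adjusted p = 0.0102). Over the 13 comparisons of diet groups with CD, LPSCD left aside, the 6 scarce mRNAs had a negative log2 fold change in 70 of 78 tests, and the 7 copies on chromosome 1 in 88 of 91 tests with 27 calls. Of all genes, between 0% (REPOP60) and 1.9% (REPOP21) were called in these 13 comparisons. In DEP21, REPOP10 and REPOP21 all 7 copies were called lower, against 0.13%, 0.168% and 1.33% of all genes. The copies are neighbouring parts of 1 stretch of chromosome 1, so their tests are not separate observations. The RE title numbers of DEP21 (018, 021 and 028) were also above those of CD, so group and title number cannot be told apart in these calls either. These comparisons share their control mice, and none of the copies was called by FPKM.

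mt-Ts1 was the member called most often, lower in 4 of the 13 comparisons of diet groups with CD and not called in LPSCD (−0.17). CD mice had 25.9, 33.8 and 30.5 CPM (RE) and 3.42 and 4.82 CPM (re). DEP21 mice had 13.7, 4.68 and 9.66 CPM (RE) and 1.03 CPM (re), and REPOP21 mice 9.78, 10.6 and 15.5 CPM (RE) and 1.76 CPM (re), so that both groups lay below CD within each suffix. In their RE mice, group and title number cannot be told apart here as well. The log2 fold change was −1.74 ± 0.20 (SE) in DEP21 (edgeR adjusted p = 1.1e-05), −1.32 in REPOP21 (adjusted p = 5.3e-06), −1.26 in REPOP10 (adjusted p = 0.000952) and −0.74 in DEP7 (adjusted p = 0.0443). By FPKM the same tRNA had +0.03 in DEP21 and +0.02 in REPOP21, with 112 to 139 FPKM in the RE mice of DEP21 and 129 to 153 FPKM in those of CD.

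The rise of mt-Tq rested on single mice. It had 103 CPM in 1 RE mouse of REPOP21 and 4.28 to 4.70 CPM in the other mice of that group, against 2.95 to 5.86 CPM in CD. Without that mouse the log2 fold change of mt-Tq against CD went from +2.43 to −0.06. DEP21 had 1 such mouse as well, with 208 CPM against 3.21 to 6.74 CPM in the other mice. In FPKM none of these mice stood apart, with 131 FPKM in the REPOP21 mouse and 133 FPKM in the DEP21 mouse among 77.3 to 163 FPKM in both groups.

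**Figure D5:**
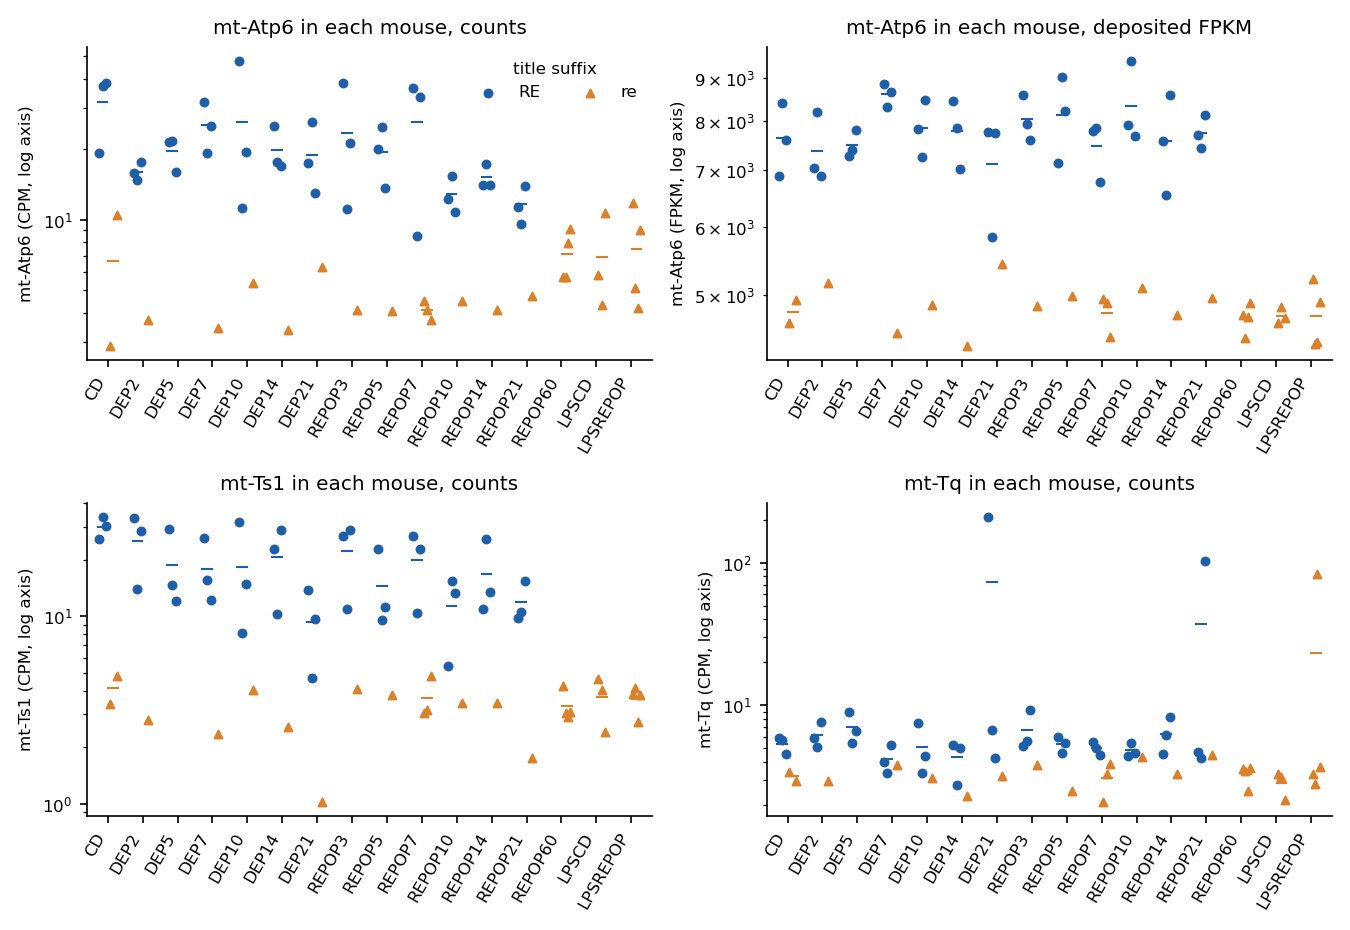
Levels of mt-Atp6 in CPM and in FPKM, of mt-Ts1 in CPM and of mt-Tq in CPM for each mouse by group on log axes, with RE mice as blue circles and re mice as orange triangles. For counts of mt-Atp6 and mt-Ts1 the re mice lie low, reaching 11.8 and 4.82 CPM where the lowest RE mice have 8.52 and 4.68 CPM, and 3 single mice, in DEP21, REPOP21 and LPSREPOP, stand far above the rest for mt-Tq.

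The calls against CD depended on how the fit was made. With the group as the only term, without the suffix, 0 members were called in DEP2, DEP7, DEP21, REPOP10 and REPOP21. With all 65 mice in 1 fit there were 0 calls in DEP2, DEP7, REPOP10 and REPOP21 and 2 in DEP21, where 1 of 28211 genes was called higher and 40 lower. DESeq2 called 0 members in DEP2, DEP7 and REPOP10, 1 in DEP21 and 2 in REPOP21. Of all genes it called 2 higher and 17 lower of 23764 in DEP21, and 232 and 285 of 23739 in REPOP21. Leaving out CD mouse 3 or 4 removed the call in DEP21. The calls in DEP2, DEP7 and REPOP10 went to 0 without CD mouse 2, 3 or 4, without any mouse of DEP2, without DEP7 mouse 1, 3 or 4, and without REPOP10 mouse 2 or 4. In REPOP21 the count was 1 without CD mouse 2, 3 or 4 or REPOP21 mouse 2 or 4, 0 without REPOP21 mouse 3 and 10 without REPOP21 mouse 1, the re mouse.

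The ratio of rRNA to mRNA was higher than in CD in most later groups, within the spread between mice. RE mice of CD had 7.99, 8.28 and 5.91 rRNA counts per 100 mRNA counts. Means of the RE mice were 7.55 in DEP7 and between 8.54 and 8.64 in DEP10, DEP14 and DEP21, and rose to between 9.03 (REPOP5) and 9.66 (REPOP21) in the repopulation groups. The largest log2 differences within suffix were +0.28 in REPOP21 (exact permutation p = 0.05, adjusted p = 0.267) and +0.26 in REPOP10 (exact permutation p = 0.0667, adjusted p = 0.267). As for the share, a difference in a single group could not pass after adjustment. RE title numbers run along with this order of the groups, so the time course and the title number cannot be told apart, and the re mice of REPOP10 and REPOP21, at 6.59 and 6.61, lay within the 6.45 and 6.74 of CD.

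Lipopolysaccharide went with more rRNA relative to mRNA in the re mice. LPSCD mice had 8.09, 10.6 and 10.1 rRNA counts per 100 mRNA counts and LPSREPOP mice 7.04, 8.20, 8.76 and 7.06, all above the highest of the 19 other re mice (6.98). LPSREPOP exceeded REPOP60 by +0.27 on the log2 scale, 1.20-fold, with no overlap between the groups (exact permutation p = 0.0286, the smallest possible with 4 mice a group, adjusted p = 0.267). LPSCD exceeded the re mice of CD by +0.53, 1.45-fold (exact permutation p = 0.2, where 0.1 is the smallest possible). LPSREPOP was below LPSCD by 0.30 with overlapping mice (exact permutation p = 0.143). By FPKM the differences were much the same, +0.26, +0.51 and −0.28. The mRNA share did not move along, with 2.87% ± 0.0646 (SD, n = 3) in LPSCD, 2.999% ± 0.293 (SD, n = 4) in LPSREPOP and 3.07% ± 0.211 (SD, n = 4) in REPOP60.

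mt-Rnr2, the large rRNA, was higher by more than mt-Rnr1 in LPSCD against CD, and by a similar amount in LPSREPOP against REPOP60. It stood at 1548 and 1661 CPM in the re mice of CD, at 1818, 2525 and 2495 CPM in LPSCD, at 1853, 1832, 1918 and 1728 CPM in LPSREPOP and at 1712, 1557, 1469 and 1516 CPM in REPOP60. Every mouse given lipopolysaccharide was thus above every re mouse of CD and REPOP60. The log2 fold change was +0.50 in LPSCD against CD (edgeR unadjusted p = 0.0043, adjusted p = 0.266) and +0.21 in LPSREPOP against REPOP60 (adjusted p = 0.0259). mt-Rnr1, the small rRNA, changed by +0.15 and +0.22 in the same comparisons, the second with an adjusted p of 0.037.

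Besides the rRNAs, 3 tRNAs were called in LPSREPOP against REPOP60, 5 members of 32 in all, where 2.92% of all genes were called. mt-Tc had 4.76 to 7.05 CPM in REPOP60 and 8.54 to 10.99 CPM in LPSREPOP, without overlap (+0.67, edgeR adjusted p = 0.0121). mt-Tm had 20.5 to 28.7 CPM in REPOP60 and 18.0 to 21.3 CPM in LPSREPOP (−0.41, adjusted p = 0.0291). mt-Tq had +2.81 (adjusted p = 0.0381) through 1 mouse with 83.9 CPM and −0.03 without it. DESeq2 called 3 of these members, limma on FPKM 0 and a fit of all 65 mice 0. Leaving out REPOP60 mouse 2 or 4 removed all 5 calls, and leaving out any other mouse left between 1 and 4. No member was called in LPSCD against CD, where 6 had an unadjusted p under 0.05 and 0.0466% of all genes were called, nor in LPSREPOP against LPSCD, where 3 did and 0% of all genes were called, and DESeq2 and limma also gave 0 in both.

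Markers of several cell types moved along with the lipopolysaccharide groups. The mean of 5 red blood cell genes was 0.0678 to 0.575 log2(CPM + 1) in LPSREPOP, against 0.82 to 1.01 in REPOP60, with 1 of 5 called lower and 0 higher. In LPSCD it was 0.225 to 0.826, which overlapped the 0.701 and 0.960 of the re mice of CD, and no red blood cell gene was called there. Of all genes, 2.92% were called in LPSREPOP against REPOP60 and 0.0466% in LPSCD against CD. Of 15 microglia genes, 6 were called higher and 0 lower in LPSREPOP against REPOP60 and 4 higher and 0 lower in LPSCD against CD. LPSREPOP against REPOP60 also had 2 higher and 0 lower of 13 rod genes (Nr2e3 +0.43, Pdc +0.31), 1 higher and 2 lower of 8 cone genes (Opn1mw +0.32, Arr3 −0.56, Pde6h −0.46), 1 higher and 1 lower of 7 Müller glia genes (Vim +0.74, Rlbp1 −0.57) and 1 higher of 5 lens genes (Cryab +0.48). The part of these cells in the rRNA and tRNA values was not tested.

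Nuclear genes of oxidative phosphorylation were called in REPOP21 and once in REPOP10. Of the 79 subunits tested, 0 were called in 14 of the 16 comparisons, while the median log2 fold change stayed between −0.06 and 0.07. REPOP10 had 1 higher subunit, Ndufb9 of complex I (+0.41), where 0.365% of all genes were called. REPOP21 had 10 calls, where 1.9% of all genes were called, with 2 higher (Ndufv3 +0.38, Uqcrb +0.39) and 8 lower subunits. The lower ones lay in complexes I (Ndufs7 −0.44, Ndufa11 −0.53), III (Cyc1 −0.37) and IV (Cox8a −0.78, Cox6a1 −0.30) and in the ATP synthase (Atp5d −0.49, Atp5g2 −0.73, Atp5g1 −0.52). These calls depended on the fit. With all 65 mice in 1 fit, only 1 gene of any kind was higher and 2 were lower in REPOP21. With the group as the only term 0 genes were called, and by FPKM 1 was higher and 0 lower. Group and title number cannot be told apart in the RE mice of REPOP21. In LPSREPOP against REPOP60, Ppargc1b, a coactivator of mitochondrial biogenesis, was lower (−0.56) and Nrf1, a transcription factor for nuclear mitochondrial genes, higher (+0.24), the 2 calls among 9 regulators. Among 78 proteins of the mitochondrial ribosome there were also 2 calls, both lower (Mrpl48 −0.26, Mrps17 −0.29), a share near the 2.92% of all genes called in that comparison.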

How the data were processed

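RNA of whole retinas from 65 mice was sequenced by the authors as single-end reads of 50 bases on a BGISEQ-500, after poly(A) selection per the labels (the methods name rRNA removal as another choice and do not say which was taken). The deposited read counts per gene were made by the authors with HTSeq from HISAT2 alignments to mm10 and were not normalized. FPKM values, also deposited, came from the same alignments, to which the authors applied StringTie. Versions, annotation, strand setting and the treatment of reads with several alignments are not given in the sources used here. A row count of 1 in the FPKM values named no gene and was left out. Genes were placed with GENCODE M21 (GRCm38), which names 50376 of 50686 identifiers. Mitochondrial genes and the lists of nuclear genes were chosen with earlier results of these data known.

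CPM scales the counts of a mouse to a fixed total. Each comparison was fitted with edgeR 4.0.16 in R 4.3.3 (quasi-likelihood F test, TMM) with group and title suffix as terms, and without the suffix for LPSREPOP against LPSCD or REPOP60, where all mice share it. DEP5 was thus compared with the RE mice of CD, and REPOP60 and LPSCD with its 2 re mice. Tested genes had 1 or more counts in at least a 0.5 share of either group's mice, and p-values were adjusted over all of them by Benjamini-Hochberg. The contrast of re and RE mice used the 12 groups with both and the group as a term. The SE is the log2 fold change divided by the square root of F. Shares and ratios per mouse were compared on the log2 scale by two-sided exact permutation within suffix, adjusted over 16 comparisons, and for the suffix by 100000 permutations within groups (seed 1). FPKM values were tested with limma 3.58.1 on log2(FPKM + 1), an alternative added after the data were seen. Shared 50-base stretches were counted against all GENCODE M21 transcripts, and copies were aligned with blastn 2.17.0. The fits were tested on simulated data. Figures used Python 3.11.15 and matplotlib 3.10.9.

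Depth ranged from 5106429 to 8760443 counts per mouse (median 7944665). A level of 3 counts was taken as the floor. Named genes were the 13 mRNAs, the 2 rRNAs, the 6 tRNAs of highest mean CPM, the copies on chromosome 1 and, per nuclear list, up to 4 genes of smallest p among those called. Of the listed nuclear genes, Ndufb1-ps and Atp5md could not be matched. The alternatives were DESeq2 1.42.0, RLE normalization, no gene filter, all 65 mice in 1 fit, group as the only term, mitochondrial genes left out of library sizes, the replicate number as a block, FPKM, and leaving out each mouse in turn. Replicate numbers mark different mice. Deviations of same-numbered mice from their group and suffix means were correlated over 12347 genes, and all pairs exceeded 0.1 only in DEP2 against CD (3 pairs, 0.104 to 0.493), where the numbers were taken to pair the mice. Single pairs reached 0.606 in DEP14 and −0.615 in REPOP14 against CD, so this rule does not show that mice were paired. Nothing says that mice of a group were housed or processed apart, so p-values measure the spread between these mice.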

Additional observations from a re-analysis of the deposited data

Results flagged for a closer look

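Values that stood far from the rest of their group were sought by Dixon's test in 23 measures and 14 groups of 4 to 6 mice, where chance flags about 1 group in 20. It flagged 19 values, a number near that rate over all measures and groups. Groups were not split by suffix for this test. In 3 of the values a single mouse stood far above the others for mt-Tq, at 208 CPM in DEP21 mouse 2, 103 CPM in REPOP21 mouse 4 and 83.9 CPM in LPSREPOP mouse 3, which belong to different suffixes (RE, RE and re). Their FPKM for mt-Tq lay within the range of their groups. The cause was not tested.

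Another 9 values were the lowest of their group in its only re mouse, mouse 1. In REPOP21 this was the mRNA share (3.15%), mt-Nd1 (5494 CPM), mt-Nd2 (3121 CPM) and mt-Co3 (1.57 CPM). mt-Nd1 was low in DEP14 (4822 CPM), mt-Nd2 in REPOP5 (3199 CPM), mt-Nd4 in DEP2 (1746 CPM), and mt-Tc in DEP2 (8.51 CPM) and REPOP3 (7.67 CPM). These follow the suffix difference of the report.

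The remaining 7 values were the highest of their groups. mt-Co1 had 8127 CPM in DEP21 mouse 3 and 8469 CPM in REPOP3 mouse 4, and mt-Cytb 9688 CPM in REPOP10 mouse 3. CD mouse 3 was high for mt-Co2 (51.2 CPM) and mt-Nd3 (5.29 CPM). In REPOP60 mouse 4 had 6.73 CPM of mt-Co3 and mouse 1 had 4.25 CPM of mt-Ts1.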

How the results depend on the processing

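The lower mitochondrial mRNA share of re mice kept its direction and its side of the threshold under every alternative run. Its log2 difference was −0.48 to −0.44 when all mice of 1 group were left out. The lower rRNA to mRNA ratio of re mice was −0.064 by FPKM and no longer past the threshold. In no comparison of groups did an alternative with all mice bring a difference of the mRNA share past the threshold. The number of members called in a comparison of groups was less stable. Without a gene filter it was 1 in REPOP3 and REPOP7, 2 in DEP5, DEP10 and DEP14, 3 in DEP7, REPOP5 and LPSCD, 4 in DEP21 and REPOP14, 8 in REPOP10 and 14 in REPOP21, each against CD. Of all genes, this setting called 595 higher and 693 lower of 29172 in REPOP21, 344 and 283 of 29246 in REPOP10, and 478 and 308 of 29288 in LPSCD. The other comparisons just named had at most 71 higher and 116 lower genes, the numbers of DEP7 (of 29388). DESeq2 gave 0 in DEP2, 0 in DEP7, 0 in REPOP10, 2 in REPOP21 and 3 in LPSREPOP against REPOP60. Of all genes it called 232 higher and 285 lower of 23739 in REPOP21, and 331 and 188 of 24927 in LPSREPOP against REPOP60. With all 65 mice in 1 fit the number of members called was 0 in DEP2, DEP7, REPOP10 and REPOP21, 2 in DEP21, 3 in LPSCD and 0 in LPSREPOP against REPOP60. Of all 28211 genes, this fit called 1013 higher and 800 lower in LPSCD, and 1 higher and 40 lower in DEP21. With the group as the only term the number of members called was 0 in DEP2, DEP7, DEP21, REPOP10 and REPOP21. It was 1 in LPSCD, where 389 of 23606 genes were called higher and 185 lower. By FPKM the number of members called was 0 in all 16 comparisons. RLE normalization and library sizes without mitochondrial genes left each count within 1.5 times. Causes were not tested.

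The replicate number entered as a block, which took the place of the suffix where both could not be estimated. The count of members called stayed at 1 in DEP2, the comparison in which the numbers were taken to pair the mice. In the others, where the numbers were not taken to pair mice, it was 1 in DEP5, DEP10 and REPOP3, 2 in DEP7 and DEP14 and 7 in REPOP21. Of all genes, this fit called 4 higher and 21 lower of 23946 in DEP2, and 216 and 406 of 23739 in REPOP21. The other comparisons just named had at most 75 higher and 111 lower genes, the numbers of DEP7 (of 23991). The log2 difference of the ratio of rRNA to mRNA in LPSREPOP against REPOP60 was 0.27, with p = 0.125 in the paired exact permutation test.

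For re against RE, leaving out 1 group at a time gave 28 to 29 calls. Leaving out 1 mouse at a time gave 0 to 1 calls in DEP2, DEP5, DEP7, REPOP5 and REPOP14, 0 to 2 in DEP21, 0 to 5 in REPOP10 and 0 to 10 in REPOP21. It gave 0 to 3 in LPSCD, 0 to 2 in LPSREPOP against LPSCD and 0 to 4 in LPSREPOP against REPOP60. The log2 difference of the share was −0.12 to −0.055 in REPOP7 (exact permutation p = 0.025 without CD mouse 1), and that of the ratio was 0.11 to 0.25 in REPOP7 and 0.21 to 0.31 in LPSREPOP against REPOP60.

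By FPKM the log2 fold change took the other sign for mt-Atp6 in DEP2 (0.0020), REPOP10 (0.12) and REPOP21 (0.035), for mt-Co3 in REPOP10 (0.14) and REPOP21 (0.073), for mt-Ts1 in DEP7 (0.17), DEP21 (0.028), REPOP21 (0.022) and re against RE (0.38), for mt-Tl1 in re against RE (0.019), and for mt-Tq in REPOP21 (−0.17) and LPSREPOP against REPOP60 (−0.61). For mt-Tq it also did without REPOP21 mouse 4 (−0.060, and up to 2.84 without another mouse) and without LPSREPOP mouse 3 (−0.026, and up to 3.18 without another mouse). The 6 scarce mRNAs had mean counts of 17.6 to 144 reads per mouse, which limits how small a change could be seen in them.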

Other observations

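The make-up of the mitochondrial mRNA counts also differed between mice with the suffix RE and those with re. Of all mitochondrial mRNA counts, mt-Co1 took 16.1% ± 1.83 (SD, n = 39) in RE mice and 20.3% ± 1.12 (SD, n = 26) in re mice, and mt-Cytb 21.2% ± 1.20 and 23.4% ± 0.808. mt-Nd1 went the other way, with 19.4% ± 1.47 in RE mice and 17.5% ± 0.952 in re mice, and so did mt-Nd2, with 11.6% ± 0.792 and 9.73% ± 0.544. In FPKM, where the 6 scarce mRNAs lay closer to the abundant ones, mt-Co1 took 10.6% ± 0.728 in RE mice and 12.8% ± 0.668 in re mice, and mt-Nd3 2.47% ± 0.2 and 1.56% ± 0.105.

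Of the 5 tRNA genes that lie in gaps of the span copied on chromosome 1, mt-Td, mt-Tk and mt-Tg had next to no counts, while mt-Tr had a mean of 9.31 counts and mt-Ts1 of 101 counts per mouse. The gap that holds mt-Tr was 73 bases in the mitochondrial genome and 74 bases on chromosome 1, whereas the gaps around mt-Tg (69 bases), mt-Tk (233 bases) and mt-Ts1 and mt-Td (140 bases) were equally long in both. No gene is annotated in these stretches of chromosome 1, and their sequence was not analysed here.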
